A study of Mus musculus with 10 samples.

Results

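The interleukin receptor genes are the protein-coding genes whose symbol starts with Il, a number and r, with the receptor antagonist gene Il1rn left out. The gene table held 42 of them, under 40 symbols, among 54532 genes. RNA sequencing of mouse splenic B cells compared 5 libraries from animals with liver fibrosis, given carbon tetrachloride into the peritoneum over 4 weeks, with 5 libraries from wildtype animals, called control below. Carbon tetrachloride injures hepatocytes and is a common way to make liver scar in mice. The labels give no strain, sex, age or method of B cell isolation. They do not say whether the controls were injected or whether each library is a separate animal, so the p-values rest on differences among libraries that may be technical in origin.

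Most interleukin receptors are assembled from a chain that binds one cytokine and a chain that several receptors share. The common gamma chain serves the receptors for IL-2, IL-4, IL-7, IL-9, IL-15 and IL-21, which act through JAK1, JAK3 and STAT proteins. The IL-1 family uses receptors with a Toll/IL-1 receptor domain, which signal through MyD88. In the spleen, IL-4 and IL-21 from helper T cells steer B cell activation, survival and class switching. IL-7 drives B cell precursors, and IL-10 restrains activated leukocytes.

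Total counts were 13439100 to 17069393 in the fibrosis libraries and 15912080 to 17954551 in the controls. Levels are given as CPM, counts scaled to a common library total with TMM factors, and 1 such CPM stood for 12.7 to 16.8 counts in the fibrosis libraries and 16.5 to 18.8 in the controls. The 6 B cell markers, such as Cd79a and Ms4a1, summed to 5135 to 7347 CPM in fibrosis and 4880 to 5527 CPM in control, and markers of other cells were present as well. Of 14 marker lists, the erythroid and the B cell progenitor list had members that passed as lower in fibrosis (2 of 5, and 6 of 7 with the remaining 1 higher), and no other list had one. All 6 platelet markers passed as higher, and fibrosis 4 and 5 had the highest summed platelet, neutrophil and mast cell levels of all libraries. Of all tested genes, 18.3% passed as higher and 17.0% as lower. None of the listed markers was without a count in all 10 libraries. In bulk RNA, fewer cells of a type and less RNA per cell cannot be told apart.

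Of the 42 interleukin receptor genes, 30 had a mean of at least 0.5 CPM over all libraries and were tested, and 12 were too low. In fibrosis 10 were higher (33.3% of the 30; 18.3% of all 14599 tested genes) and 4 were lower (13.3%; 17.0% of all tested genes) by the quasi-likelihood test of edgeR, with adjusted p below 0.05. The higher genes were Il9r, Il13ra1, Il12rb1, Il10ra, Il2rb, Il1rap, Il4ra, Il2rg, Il10rb and Il27ra. The lower genes were Il1rl1, Il1rl2, Il1r1 and Il2ra. At least a 2-fold change was seen for 1 of the higher genes (Il9r) and 3 of the lower (Il1rl1, Il1rl2 and Il1r1). Over all 14599 tested genes, 577 were called at least 2-fold higher and 785 at least 2-fold lower. The libraries of the groups did not overlap for 10 of the 30 (33.3%; 25.1% of all tested genes). Fibrosis lay above control for 6 (20%, against 11.2% of all tested genes) and below it for 4 (13.3%, against 13.9%). The median log2 fold change, fibrosis minus control throughout, was 0.32 over the 30 receptor genes and 0.05 over all tested genes. With library size as the only scaling all genes moved by a median of -0.10, the higher share of all calls was 35.3% in place of 51.9%, and 6 receptor genes were higher and 4 lower.

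**Figure D1:**
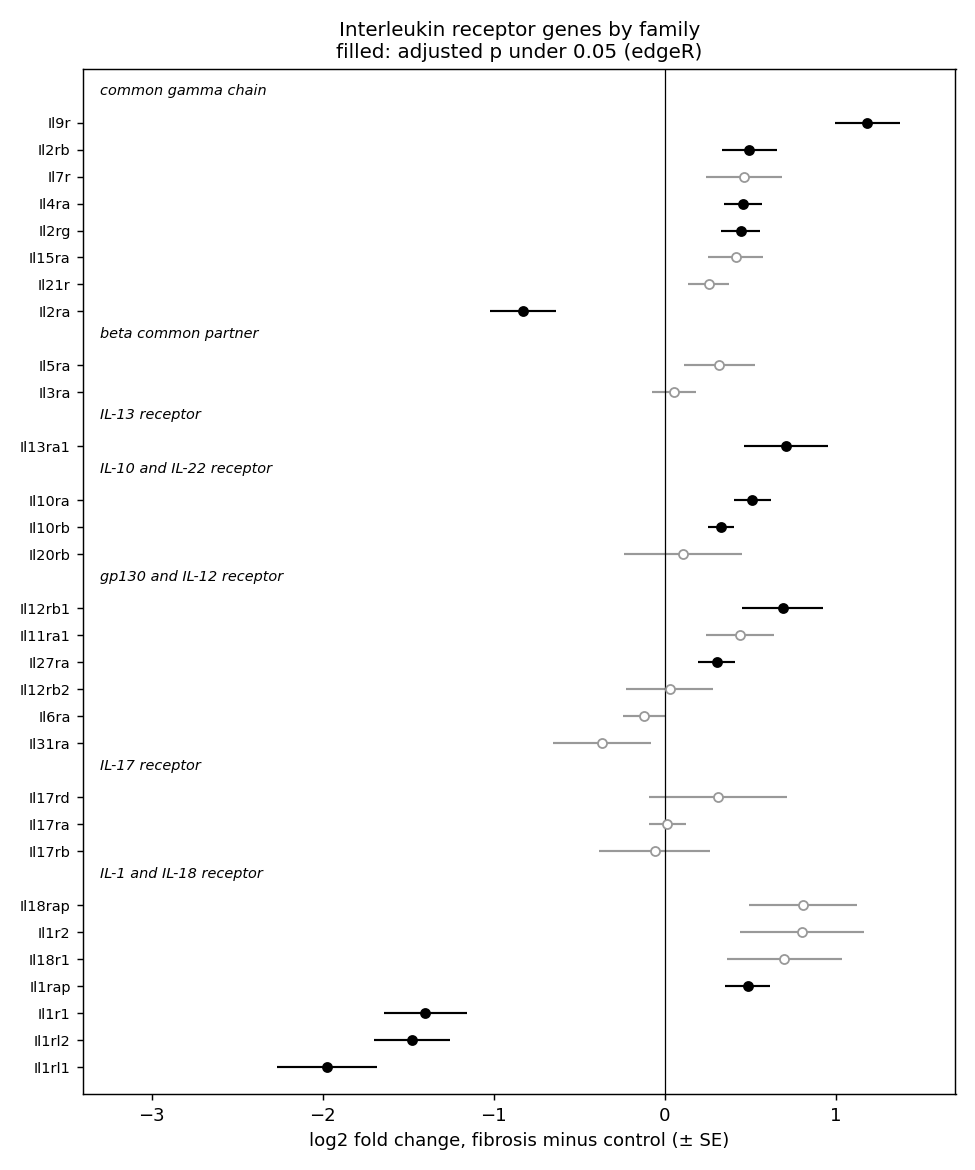
Log2 fold change, fibrosis minus control, of the 30 tested interleukin receptor genes, with its standard error as bars, grouped by receptor family on the y axis; filled black points passed an adjusted p under 0.05 and open grey points did not. Il1rl1, Il1rl2, Il1r1 and Il2ra lie left of 0, and Il9r lies farthest right at 1.18.

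By the deposited FPKM (fragments scaled to gene length and library total), which allows levels to be compared between genes, 10 of the 30 stood at 10 or more in control, 11 between 1 and 10 and 9 below 1. The 4 highest control levels were those of Il10ra (60.6 ± 2.54 FPKM, SD, n = 5), Il4ra (53.5 ± 2.44), Il21r (51.9 ± 3.79) and Il2rg (49.5 ± 2.73), so the receptor chains for IL-10, IL-4 and IL-21 and the common gamma chain led the list. Il4ra and Il21r, and Il21r and Il2rg, differed by less than 1 SD of Il21r, while Il10ra stood clear of them. The same genes led in fibrosis, where Il10ra stood at 85.5 ± 14.3, Il4ra at 72.8 ± 13.5, Il2rg at 66.7 ± 13.4 and Il21r at 61.4 ± 12.4 FPKM. Il9r was the fifth in fibrosis and the seventh in control, and Il1rl1 was at place 22 in fibrosis and 14 in control.

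**Figure D2:**
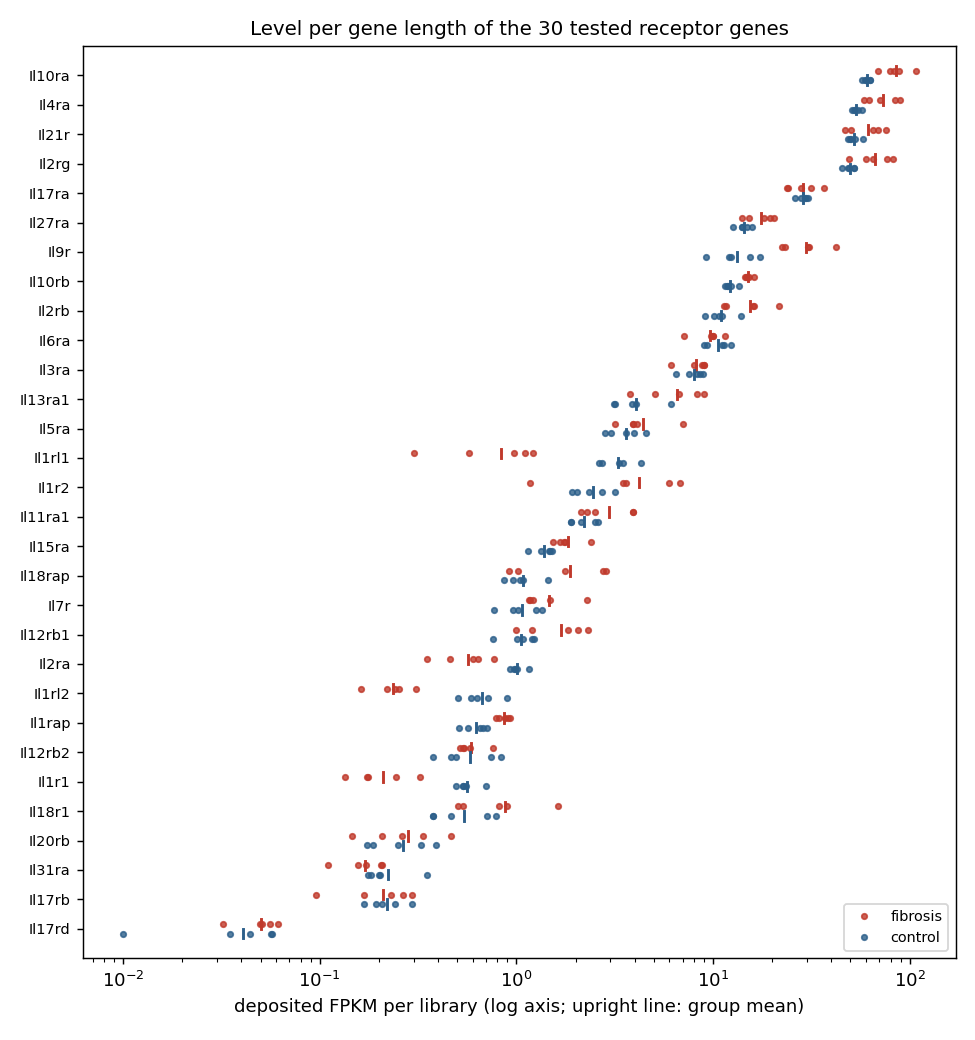
Deposited FPKM of the 30 tested receptor genes on a log axis, 1 point per library and an upright line at the group mean, with fibrosis drawn above control in each row and genes ordered by their control level. Il10ra, Il4ra, Il21r and Il2rg are at the top in both groups, and the fibrosis points of Il1rl1, Il1rl2, Il1r1 and Il2ra lie to the left of the control points.

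The lower genes other than Il2ra lie side by side. On chromosome 1, 6 receptor genes of the IL-1 and IL-18 group follow each other on the plus strand between 40074079 and 40551705 (GRCm38, 477.6 kb) with no other protein-coding gene between neighbours, in the order Il1r2, Il1r1, Il1rl2, Il1rl1, Il18r1 and Il18rap. The middle genes Il1r1, Il1rl2 and Il1rl1 fell, and the outer genes Il1r2, Il18r1 and Il18rap did not pass the test. These sequences are shown because the genes behind them fell together, and each is the 250 bases before a RefSeq start of the gene (GRCm38.p6), plus strand. Capitals mark AGATAA or its reverse complement TTATCT, a core that GATA factors can bind.
Il1r1, first start, chr1:40224830-40225079: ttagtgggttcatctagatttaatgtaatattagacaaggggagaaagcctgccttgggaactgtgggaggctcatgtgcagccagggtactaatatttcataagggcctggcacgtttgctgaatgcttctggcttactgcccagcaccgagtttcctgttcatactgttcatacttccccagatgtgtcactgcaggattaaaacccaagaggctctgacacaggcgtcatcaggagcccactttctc
Il1rl2, chr1:40324339-40324588: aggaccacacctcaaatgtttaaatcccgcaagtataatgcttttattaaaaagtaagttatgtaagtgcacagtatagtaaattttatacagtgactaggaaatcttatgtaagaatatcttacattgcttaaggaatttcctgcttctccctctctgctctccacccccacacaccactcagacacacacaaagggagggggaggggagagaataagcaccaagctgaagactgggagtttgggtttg
Il1rl1, first start, chr1:40429320-40429569: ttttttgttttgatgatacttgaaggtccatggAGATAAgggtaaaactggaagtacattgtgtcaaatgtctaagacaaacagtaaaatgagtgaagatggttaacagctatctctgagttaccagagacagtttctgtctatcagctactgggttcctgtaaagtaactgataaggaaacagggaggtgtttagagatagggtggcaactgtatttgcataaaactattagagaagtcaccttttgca
Il1rl1, second start, chr1:40439379-40439628: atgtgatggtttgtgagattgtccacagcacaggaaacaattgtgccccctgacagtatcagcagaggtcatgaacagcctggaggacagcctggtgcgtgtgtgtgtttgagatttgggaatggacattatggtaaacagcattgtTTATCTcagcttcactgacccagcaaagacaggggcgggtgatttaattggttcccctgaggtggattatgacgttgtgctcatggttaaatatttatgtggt

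The windows from 250 bases before to 50 bases after a start were searched on both strands for AGATAA and for TTCNNNGAA, the palindromic core of STAT sites, neither of which contains the other. AGATAA, on either strand, occurred in both windows of Il1rl1 and in neither that of Il1rl2 nor those of Il1r1, and TTCNNNGAA in none of these. Of all 32851 RefSeq windows, 11.2% held AGATAA and 8.30% held TTCNNNGAA. Among the 39 windows of 33 receptor symbols, 8 held the first and 5 the second. Such a match describes letters and not a bound site.

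Il1rl1 encodes ST2, the receptor chain that binds IL-33, and lies at 40429570 to 40465415. It was at 6.60, 4.00, 7.69, 8.46 and 2.20 CPM in fibrosis 1 to 5, against 22.9, 18.05, 24.2, 18.8 and 29.6 CPM in control 1 to 5. Every fibrosis library lay below every control, with fibrosis 5 lowest. The log2 fold change was -1.98 ± 0.29 (SE; adjusted p = 0.000315 by edgeR), and it was -1.88 without fibrosis 4 and 5. Mast cells and basophils are known for high ST2. In their list 4 of 5 tested members were higher, with sums of 13.2 to 62.7 CPM in fibrosis against 15.3 to 31.4 CPM in control, and its part in the fall was not tested. Of 5 erythroid markers, Klf1, a transcription factor of red cell precursors, and Sptb, spectrin of the red cell skeleton, were lower, and the globin genes Hba-a1 and Hbb-bs and the haem synthesis gene Alas2 did not pass (log2 fold changes of -0.41, 0.33 and -0.51). Among the fibrosis libraries Klf1 and Sptb were lowest in fibrosis 5 and 2, as Il1rl1 was, whereas Hba-a1, Hbb-bs and Alas2 had their second highest level in fibrosis 5. Klf1 was at 80.4, 43.3, 64.0, 129.9 and 21.8 CPM in fibrosis 1 to 5 and 224 to 323 CPM in control. The erythroid list summed to 1119, 553, 1285, 5601 and 2577 CPM in fibrosis 1 to 5 and to 2125 to 3551 CPM in control, and its part in the fall was not tested either.

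Il1rl2 encodes the chain that binds IL-36 cytokines (40324610 to 40367562). It was at 1.47, 1.11, 1.73, 2.13 and 1.75 CPM in fibrosis, against 4.26, 4.90, 3.51, 4.01 and 6.05 CPM in control. The groups did not overlap, and the log2 fold change was -1.48 ± 0.22 (adjusted p = 0.00027 by edgeR). Il1r1, the signalling receptor for IL-1 alpha and IL-1 beta (40225080 to 40317257), was at 1.10, 1.11, 2.09, 1.58 and 0.907 CPM in fibrosis, against 3.39, 3.14, 3.45, 4.47 and 3.51 CPM in control. It too had no overlap, with a log2 fold change of -1.40 ± 0.24 (adjusted p = 0.000706 by edgeR). Both rest on few reads, with sums of 125 counts in fibrosis against 404 in control for Il1rl2, and 105 in fibrosis against 321 in control for Il1r1. Both kept their call in all 23 alternatives, as Il1rl1 did.

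The outer genes of the cluster varied more between the fibrosis libraries than between the controls, and none (0) of these 3 passed. Il1r2, the decoy receptor that binds IL-1 without signalling and that neutrophils carry, was at 6.54, 6.95, 2.27, 13.04 and 12.1 CPM in fibrosis, against 6.06, 4.46, 3.72, 5.20 and 3.88 CPM in control. Fibrosis 3 was the lowest of all 10 libraries and fibrosis 4 and 5 the highest, and the log2 fold change was 0.80 ± 0.36 (adjusted p = 0.1055 by edgeR). It passed without fibrosis 3 (1.02; adjusted p = 0.00471) and with no filter on low genes (0.75; adjusted p = 0.0284), and stood at 0.18 without fibrosis 4 and 5 (adjusted p = 0.691; range over its alternatives 0.00471 to 0.691). The summed neutrophil list was likewise lowest in fibrosis 3, at 345 CPM, and highest in fibrosis 4 and 5, at 3294 and 4215 CPM, against 543 to 1554 CPM in control, with none (0) of its 7 members called. S100a8 and S100a9 held most of the sum in fibrosis 4 and 5, while Mpo (57.1 and 83.7 CPM there) and Elane (38.9 and 47.2 CPM there) lay below all controls. Its part in Il1r2 was not tested.

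Il18r1 and Il18rap encode the binding and the accessory chain of the IL-18 receptor, which NK and T cells carry. Il18rap was at 11.7, 6.22, 6.92, 19.5 and 19.9 CPM in fibrosis, against 5.84, 7.04, 6.59, 9.78 and 7.27 CPM in control. Il18r1 was at 3.85, 2.58, 2.44, 7.90 and 4.60 CPM in fibrosis, against 1.80, 1.82, 2.28, 3.79 and 3.39 CPM in control. In both genes fibrosis 4 and 5 were the highest of all libraries and fibrosis 2 and 3 lay inside the control range. Il18rap had a log2 fold change of 0.81 ± 0.32 (adjusted p = 0.0640 by edgeR) and Il18r1 one of 0.70 ± 0.34 (adjusted p = 0.124 by edgeR), which were 0.19 for each without fibrosis 4 and 5. Il18rap passed with no filter (0.75; adjusted p = 0.00387), with DESeq2 (0.79; adjusted p = 0.0271), with fibrosis 2 left out (0.99; adjusted p = 0.0173) and with fibrosis 3 left out (0.94; adjusted p = 0.0259), and its adjusted p ranged between 0.00387 and 0.549. Il18r1 passed with no filter (0.65; adjusted p = 0.0419; range 0.0367 to 0.652). NK markers were higher in 3 of 7, with sums of 66.3 to 128 CPM in fibrosis, highest in fibrosis 4, and 62.7 to 107 CPM in control. T cell markers were higher in 2 of 9, with sums of 106 and 100.6 CPM in fibrosis 4 and 5 and 37.3 to 68.3 CPM in fibrosis 1 to 3, against 37.7 to 52.2 CPM in control. The part of either was not tested.

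**Figure D3:**
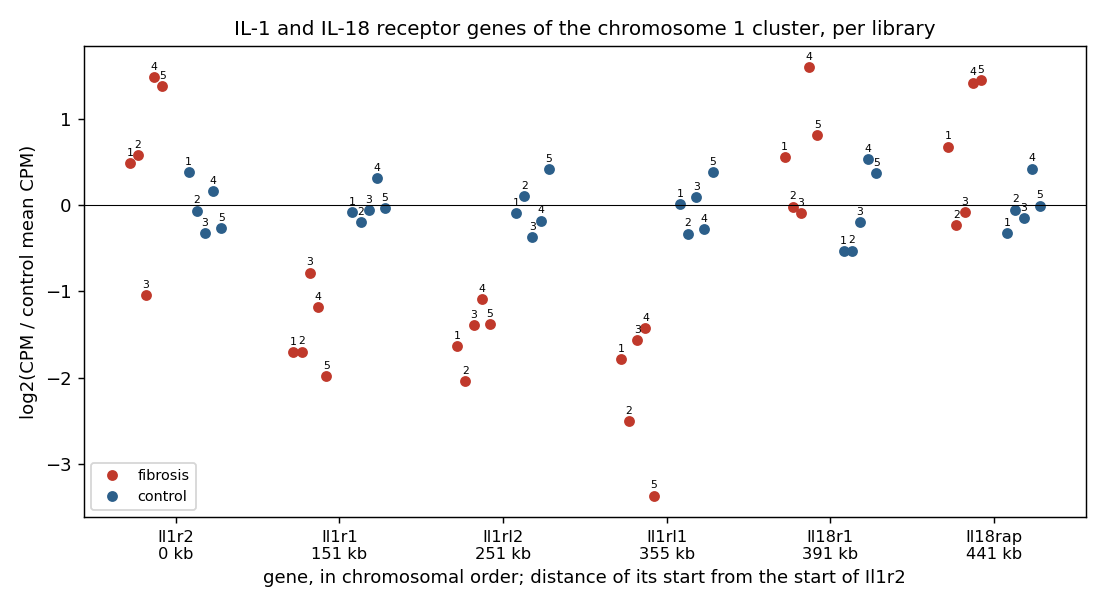
Level of the 6 neighbouring IL-1 and IL-18 receptor genes on chromosome 1 in each library, as log2 of its CPM over the control mean of that gene, in chromosomal order with the distance of each start from that of Il1r2; numbers are replicates. All fibrosis points of Il1r1, Il1rl2 and Il1rl1 lie below the control points, while fibrosis 4 and 5 are the highest points of Il1r2, Il18r1 and Il18rap.

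Il1rap, on chromosome 16 (26581704 to 26730117), encodes the accessory chain that the receptors for IL-1, IL-33 and IL-36 share. It rose, with 8.80, 10.03, 9.36, 10.4 and 11.1 CPM in fibrosis against 7.43, 6.44, 7.76, 8.085 and 5.81 CPM in control. The groups did not overlap, and the log2 fold change was 0.48 ± 0.13 (adjusted p = 0.0124 by edgeR). With no filter on low genes it was 0.43 (adjusted p = 0.0761; range over its alternatives 0.00308 to 0.0761). The shared chain thus rose while the chains that bind IL-33, IL-36 and IL-1 fell. Il1rapl1 and Il1rapl2, related genes best known from neurons, had 1 count and none (0).

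Of the 8 genes of the common gamma chain group, all were tested, 4 were higher (Il9r, Il2rb, Il4ra and Il2rg), 1 was lower (Il2ra) and 3 did not pass. Il9r, which encodes the chain that binds IL-9, lies on chromosome 11 (32187541 to 32200279, minus strand). It was at 147, 154, 212, 117 and 117 CPM in fibrosis, against 85.3, 76.3, 60.4, 45.7 and 60.9 CPM in control. Every fibrosis library lay above every control. The log2 fold change was 1.18 ± 0.19 (adjusted p = 0.000514 by edgeR), and it was 1.39 without fibrosis 4 and 5. Mast cells also carry the IL-9 receptor, and the mast cell and basophil list summed to 32.6, 31.7, 13.2, 62.7 and 45.03 CPM in fibrosis 1 to 5, against 15.3 to 31.4 CPM in control. Its part in the rise was not tested. The bases before its start are shown because it rose most, on the minus strand and with the same capitals as above.
Il9r, chr11:32200280-32200529: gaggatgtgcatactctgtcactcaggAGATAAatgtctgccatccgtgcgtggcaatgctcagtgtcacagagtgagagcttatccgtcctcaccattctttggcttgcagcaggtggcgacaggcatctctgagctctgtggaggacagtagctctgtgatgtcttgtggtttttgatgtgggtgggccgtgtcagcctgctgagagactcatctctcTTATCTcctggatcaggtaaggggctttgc

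The window of Il9r held this core at 2 places, and no TTCNNNGAA. Il9 itself, the gene of the cytokine, had 2 counts over all 10 libraries.

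Il4ra, the chain that binds IL-4 and takes part in binding IL-13, lies on chromosome 7 (125552120 to 125579474). It was at 522, 509, 427, 375 and 372 CPM in fibrosis, against 314, 307, 332, 344 and 312 CPM in control. All fibrosis libraries lay above the controls, most so fibrosis 1 and 2. The log2 fold change was 0.46 ± 0.11 (adjusted p = 0.00572 by edgeR) and 0.60 without fibrosis 4 and 5. Il2rg, the common gamma chain on chromosome X (101264378 to 101268255), was at 179.8, 198, 157, 145 and 124 CPM in fibrosis, against 116, 108, 126, 124 and 117 CPM in control. Its groups overlapped through fibrosis 5 alone, and the log2 fold change was 0.44 ± 0.12 (adjusted p = 0.00938 by edgeR).

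Il21r, the receptor for the helper T cell cytokine IL-21, starts 24.0 kb after the end of Il4ra on the same strand. It was at 247, 218, 231, 168 and 166 CPM in fibrosis, against 160.2, 165, 195, 167 and 176 CPM in control, so that fibrosis 1 to 3 lay above all controls and fibrosis 4 and 5 among them. The log2 fold change was 0.26 ± 0.12 (adjusted p = 0.112 by edgeR). It passed with voom (0.35; adjusted p = 0.00883), without fibrosis 4 (0.32; adjusted p = 0.0424), without fibrosis 5 (0.32; adjusted p = 0.0446) and without both (0.44; adjusted p = 0.00172; range over its alternatives 0.00172 to 0.389). The B cell markers were higher in 2 of 6 and summed to 6992, 7347, 6732, 5135 and 5301 CPM in fibrosis 1 to 5, against 4880 to 5527 CPM in control. Their sum thus shared with Il4ra, Il2rg and Il21r the higher values in fibrosis 1 to 3. Each marker did so but Ms4a1, at 754 CPM in fibrosis 1 and 863 CPM in fibrosis 5. The part of the B cell markers in those genes was not tested.

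Il2ra, the CD25 gene, encodes the chain that gives the IL-2 receptor its high affinity, and on mouse B lineage cells marks late precursors. It lies on chromosome 2 (11642807 to 11693193). It was at 3.36, 2.65, 3.70, 4.43 and 2.14 CPM in fibrosis, against 5.735, 5.56, 5.37, 5.60 and 6.60 CPM in control. All fibrosis libraries lay below the controls, and the log2 fold change was -0.83 ± 0.19 (adjusted p = 0.00480 by edgeR). Of the 7 B cell progenitor markers 6 were lower and Ebf1 was higher (0.46 ± 0.16; adjusted p = 0.0424 by edgeR). Rag1, which cuts immunoglobulin genes during their assembly, was at 4.86 to 8.17 CPM in fibrosis and 17.4 to 31.0 CPM in control, and in no fibrosis library reached the control range. The list, of which Ebf1 and Vpreb3 held most, summed to 150.1 to 242 CPM in fibrosis and 193 to 246 CPM in control, with overlap. Its sum was lowest in fibrosis 4, the fibrosis library with the highest Il2ra. Of the 5 fibrosis libraries, this one also had the least Ebf1 (92.7 CPM) and the least of the B cell marker Pax5 (329 CPM). Among the fibrosis libraries Dntt and Vpreb1 were highest there (1.66 and 1.03 CPM), and the other listed progenitor markers were not. The part of these cells in the fall of Il2ra was not tested.

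Il15ra, the chain that binds and presents IL-15, starts 12.1 kb after the end of Il2ra. It was at 7.27, 7.82, 6.86, 7.98 and 11.3 CPM in fibrosis, against 5.90, 6.77, 6.59, 5.09 and 6.54 CPM in control. The groups did not overlap, though fibrosis 3 lay close to control 2, and the log2 fold change of 0.41 ± 0.16 did not pass (adjusted p = 0.0607 by edgeR). It passed with DESeq2 (0.40; adjusted p = 0.0445), with protein-coding genes alone (0.43; adjusted p = 0.0477) and without fibrosis 3 (0.45; adjusted p = 0.0399; range over its alternatives 0.0399 to 0.2005), and was at 0.28 without fibrosis 5 (adjusted p = 0.161).

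Il7r, the IL-7 receptor of B cell precursors and T cells, was at 5.56, 5.42, 5.55, 10.7 and 7.39 CPM in fibrosis, against 6.28, 5.83, 4.57, 4.75 and 3.57 CPM in control, with fibrosis 4 and 5 highest. The log2 fold change was 0.46 ± 0.22 (adjusted p = 0.124 by edgeR), and 0.15 without fibrosis 4 and 5. The summed T cell markers, given above, were highest in the same libraries. The B cell progenitor sum was lowest there (150.1 and 164.6 CPM). Its members Dntt, Igll1 and Vpreb1 were highest there among the fibrosis libraries. The part of either list in Il7r was not tested.

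Il2rb, the signalling chain shared by the IL-2 and IL-15 receptors, was at 90.5, 69.8, 49.3, 69.6 and 53.1 CPM in fibrosis, against 45.8, 43.5, 48.3, 59.3 and 38.9 CPM in control. The groups overlapped through control 4 and fibrosis 3 and 5, and the log2 fold change was 0.50 ± 0.16 (adjusted p = 0.0285 by edgeR). The call was lost with library size as the only scaling (0.39; adjusted p = 0.0700) and in both FPKM fits (0.43 and 0.45; adjusted p = 0.0652 and 0.0631), and when any 1 of fibrosis 1, 2 and 4 and control 1, 2 and 5 was left out (0.36 to 0.48; adjusted p = 0.0513 to 0.0768, with a lowest adjusted p of 0.00174 over all alternatives).

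**Figure D4:**
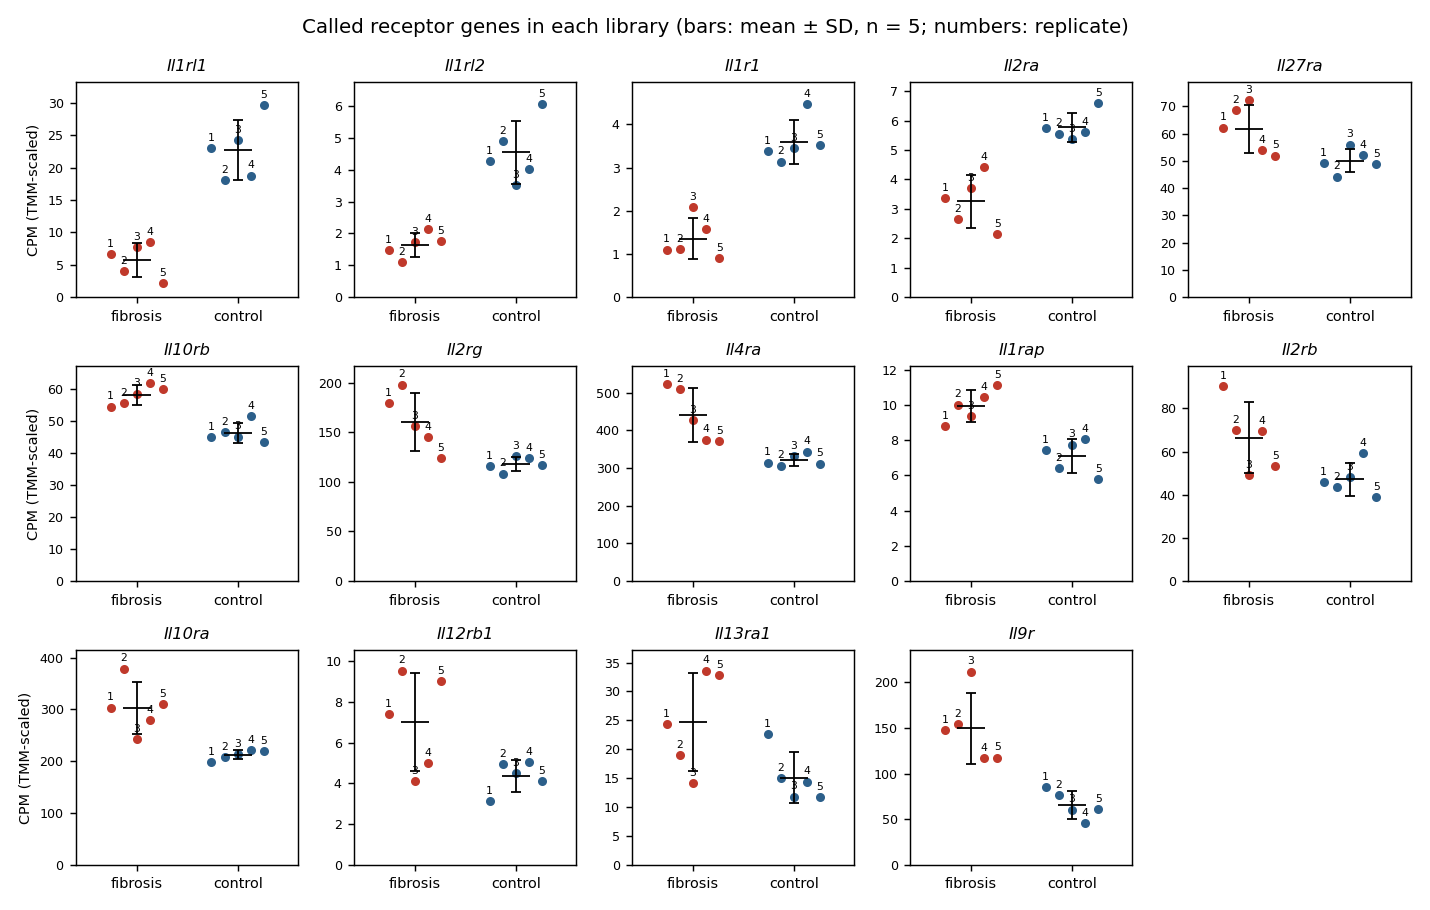
CPM of the 14 receptor genes that passed the test, 1 point per library with its replicate number, fibrosis left of control, with bars for the mean and SD (n = 5 each); each panel has its own y axis from 0. Il1rl1, Il1rl2, Il1r1 and Il2ra have all fibrosis points below the controls, and Il10rb, Il4ra, Il1rap, Il10ra and Il9r have all of them above.

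Both chains of the IL-10 receptor rose. Il10ra, which binds IL-10 (chromosome 9, 45253837 to 45269149, minus strand), was at 303, 378, 243, 279.6 and 309.6 CPM in fibrosis, against 199, 208, 214, 221 and 220.0 CPM in control. Il10rb, the chain shared with IL-22 and related cytokines (chromosome 16, 91406164 to 91425834), was at 54.6, 55.8, 58.7, 62.0 and 60.2 CPM in fibrosis, against 45.01, 46.7, 45.3, 51.6 and 43.5 CPM in control. In both genes every fibrosis library lay above every control. Il10ra had a log2 fold change of 0.51 ± 0.11 (adjusted p = 0.00261 by edgeR) and Il10rb one of 0.33 ± 0.08 (adjusted p = 0.00536 by edgeR). Il10rb, unlike Il4ra, was highest in fibrosis 4 and 5. With no filter on low genes its adjusted p was 0.115 (0.28; range over its alternatives 0.000688 to 0.115), and Il10ra kept its call throughout. Il20rb, a chain of the IL-20 and IL-24 receptors, was at 1.21 ± 0.525 CPM in fibrosis and 1.11 ± 0.386 CPM in control, a log2 fold change of 0.11 ± 0.34 (adjusted p = 0.836 by edgeR).

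Il13ra1 pairs with Il4ra in the receptor for IL-13 and is carried by myeloid cells. It was at 24.3, 19.0, 14.2, 33.6 and 32.8 CPM in fibrosis, against 22.6, 15.02, 11.8, 14.4 and 11.7 CPM in control. Fibrosis 4 and 5 stood above the rest and fibrosis 2 and 3 lay inside the control range. The log2 fold change was 0.71 ± 0.25 (adjusted p = 0.0410 by edgeR). It was 0.35 without fibrosis 4 and 5 (adjusted p = 0.249). The call was also lost with library size scaling (0.60; adjusted p = 0.0591), with voom (0.43; adjusted p = 0.152), in both FPKM fits (0.56 and 0.65; adjusted p = 0.0621 and 0.0600) and when any 1 of fibrosis 1, 4 and 5 and control 2, 3, 4 and 5 was left out (0.58 to 0.72; adjusted p = 0.0624 to 0.0979, with a lowest adjusted p of 0.0002495 over all alternatives). Macrophage and monocyte markers summed to 1851 and 2191 CPM in fibrosis 4 and 5 and 707 to 1017 CPM in fibrosis 1 to 3, against 1119 to 1828 CPM in control, with none (0) of 7 called. Their part was not tested.

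In the gp130 and IL-12 receptor group, 6 of 10 entries were tested and 2 rose. Il12rb1, the chain shared by the IL-12 and IL-23 receptors, was at 7.39, 9.54, 4.11, 4.98 and 9.01 CPM in fibrosis, against 3.11, 4.95, 4.52, 5.03 and 4.12 CPM in control. Fibrosis 1, 2 and 5 lay above all controls and fibrosis 3 and 4 among them, with a log2 fold change of 0.69 ± 0.24 (adjusted p = 0.0374 by edgeR). Il12rb2, its partner for IL-12, was at 2.26 ± 0.397 CPM in fibrosis and 2.22 ± 0.755 CPM in control (0.03 ± 0.25; adjusted p = 0.945 by edgeR), and overlaps Serbp1 on the other strand, which had 80612 counts against its 375. The call of Il12rb1 went when any 1 of fibrosis 1, 2 and 5 and control 1, 2, 3 and 5 was left out (0.55 to 0.74; adjusted p = 0.0532 to 0.0937) and with library size scaling (0.58; adjusted p = 0.0700) and in both FPKM fits (0.36 and 0.575; adjusted p = 0.0646 and 0.0706). Its lowest adjusted p over all alternatives was 0.00945.

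Il27ra, the chain that binds IL-27, was at 62.1, 68.6, 72.2, 53.8 and 51.9 CPM in fibrosis, against 49.1, 44.2, 55.9, 52.1 and 48.9 CPM in control. Fibrosis 1 to 3 lay above all controls, and the log2 fold change was 0.30 ± 0.11 (adjusted p = 0.0402 by edgeR). The call was lost with library size scaling (0.20; adjusted p = 0.210), RLE scaling (0.29; adjusted p = 0.0571), no filter (0.25; adjusted p = 0.156), DESeq2 (0.29; adjusted p = 0.0519) and both FPKM fits (0.26 and 0.28; adjusted p = 0.0822 and 0.0815). It was also lost when any 1 of fibrosis 1, 2 and 3 and control 1, 2, 4 and 5 was left out (0.23 to 0.32; adjusted p = 0.0569 to 0.133), and was firmer without fibrosis 4 and 5 (0.44; adjusted p = 0.00237). Il6ra, the chain that binds IL-6, was at 84.7 ± 13.4 CPM in fibrosis and 92.0 ± 11.9 CPM in control (-0.12 ± 0.12; adjusted p = 0.484 by edgeR), and Il6st, the gp130 chain that the receptors for IL-6 and IL-27 share, at 48.8 ± 5.63 CPM in fibrosis and 50.1 ± 4.37 CPM in control (-0.04 ± 0.10; adjusted p = 0.791 by edgeR). Il11ra1, which binds IL-11, was highest in fibrosis 4 and 5 and stood at 0.44 ± 0.20 (adjusted p = 0.1045 by edgeR), or 0.06 without them; other coding genes overlap it. Il31ra, for the itch cytokine IL-31, was at -0.37 ± 0.29 (adjusted p = 0.340 by edgeR), or at -0.15 without control 2 (adjusted p = 0.730; range over its alternatives 0.217 to 0.730).

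None (0) of the 3 tested IL-17 receptor genes and neither tested partner of the beta common chain passed. Il17ra, the chain that all IL-17 receptors share, was among the most abundant of these receptors, at 252 ± 41.6 CPM in fibrosis and 249 ± 12.9 CPM in control. Its log2 fold change was 0.01 ± 0.11 (adjusted p = 0.934 by edgeR), and between -0.09 and 0.16 over all alternatives. Il5ra, the IL-5 receptor chain of innate-like B cells and eosinophils, was at 11.1, 14.0, 25.3, 14.1 and 15.7 CPM in fibrosis, against 10.05, 12.9, 14.3, 10.9 and 16.3 CPM in control. It was highest in fibrosis 3, the library that also led in Il9r, and stood at 0.32 ± 0.21 (adjusted p = 0.251 by edgeR), or at 0.07 without that library (adjusted p = 0.745). Il3ra, the alpha chain of the IL-3 receptor, was at 24.6 ± 3.93 CPM in fibrosis and 23.7 ± 2.70 CPM in control (0.05 ± 0.13; adjusted p = 0.777 by edgeR). Il17rb, which binds IL-25, was below 1 CPM on average in both groups (-0.06 ± 0.33; adjusted p = 0.908 by edgeR). It overlaps Actr8 on the other strand, which had 5640 counts against its 133, and without the strand setting the reads of the pair cannot be told apart.

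The threshold of 0.5 CPM fell between Il17rd (0.5005 CPM over all libraries, 83 counts) and Il17rc (0.490 CPM, 82 counts). Il17rd, an IL-17 receptor family member, stood at 0.31 ± 0.40 (adjusted p = 0.585 by edgeR). The others too low to test were Il20ra (18 counts in all), Il17re (15), Il22ra1 (14), Il22ra2 (8), Il23r (6) and Il1rapl1 and the chromosome 4 copy of Il11ra2 (1 each). Il13ra2, the decoy receptor for IL-13, Il1rapl2 and 2 further copies of Il11ra2 on separate scaffolds had none (0). That allows up to 0.018 CPM over all libraries by counting error alone. Near-identical copies of Il11ra can share reads, so these zeros are uncertain. The 12 were set aside by the threshold, and no difference between groups is given for them.

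The levels of chains that work together were also set against each other within each library, where the scaling between libraries cancels. Of 15 such FPKM ratios, 5 differed between groups by an exact two-sided permutation test (each p = 0.00794, the smallest that 252 assignments can give; adjusted p = 0.0238 over the 15). For Il1rl1, Il1rl2 and Il1r1 to Il1rap this outcome was fixed by the separate genes. Every fibrosis library lay below the controls in the first chain and above them in Il1rap. These ratios give the size of the gap and add no separate support to the calls of the genes. They also count among the 15, which lowers the adjusted p of Il2ra to Il2rb and of Il9r to Il2rg. The ratio of Il1rl1 to Il1rap, the chains of the IL-33 receptor, was 1.24, 0.657, 1.35, 1.34 and 0.326 in fibrosis, against 5.09, 4.62, 5.15, 3.83 and 8.39 in control. Every control ratio was thus at least 3.83 and every fibrosis ratio at most 1.35. Il1rl2 to Il1rap was lower by 1.97 on the log2 scale, with a mean log2 ratio of -1.89 ± 0.338 in fibrosis and 0.079 ± 0.491 in control (SD, n = 5 each). Il1r1 to Il1rap was lower by 1.95, with -2.10 ± 0.541 in fibrosis and -0.148 ± 0.188 in control.

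Il2ra to Il2rb was 0.0279, 0.0284, 0.0564, 0.0478 and 0.0302 in fibrosis, against 0.0941, 0.0960, 0.0834, 0.0709 and 0.127 in control. Il9r to Il2rg was 0.395, 0.3745, 0.652, 0.388 and 0.457 in fibrosis, against 0.3555, 0.3397, 0.231, 0.178 and 0.251 in control. The fibrosis values of the first lay all below the controls and those of the second all above, so Il9r rose by more than the chain it pairs with. The other 10 ratios did not pass. Il4ra to Il2rg was 1.10 in fibrosis and 1.08 in control as a geometric mean (difference of 0.02 on the log2 scale; adjusted p = 0.852), and Il10ra to Il10rb was 5.60 in fibrosis and 4.98 in control (0.17; adjusted p = 0.335), both by the same exact test. The ratio of the decoy Il1r2 to the signalling Il1r1 was 19.8, 20.9, 3.62, 27.5 and 44.5 in fibrosis, against 5.97, 4.74, 3.59, 3.88 and 3.68 in control; fibrosis 3 lay inside the control range and the exact test gave p = 0.0397 (adjusted p = 0.0992). The alternative without fibrosis 3 passed (2.64 on the log2 scale).

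**Figure D5:**
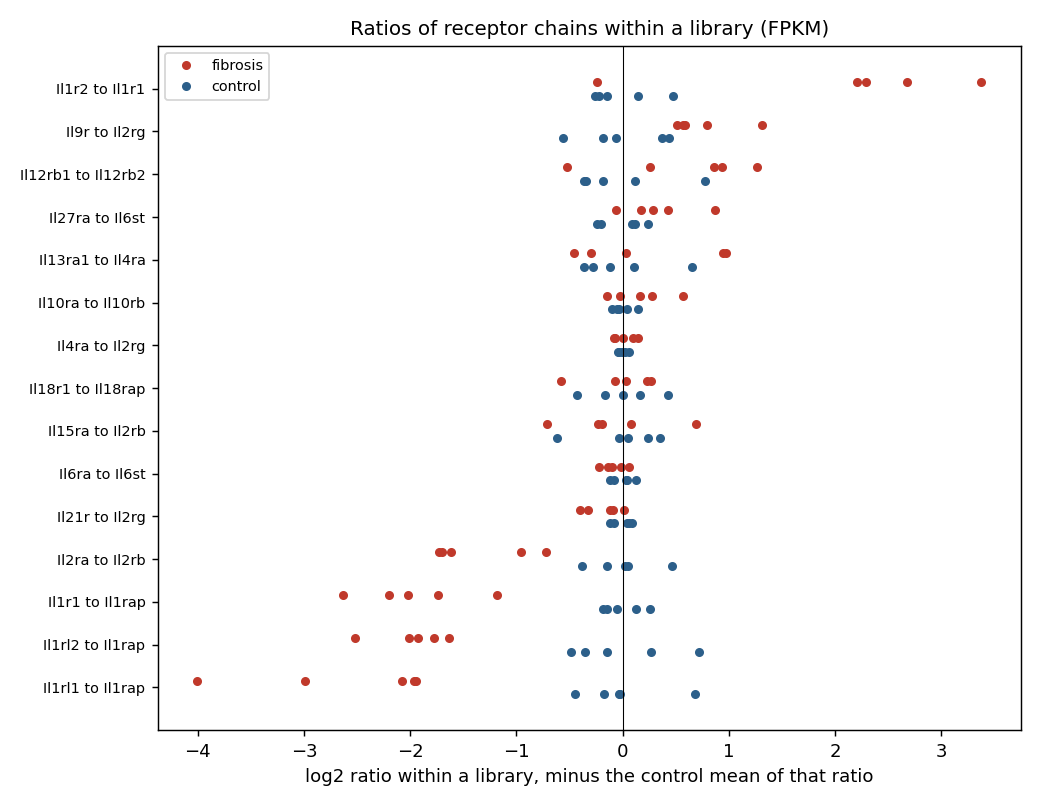
Log2 ratio of the FPKM of paired receptor chains within each library, less the control mean of that ratio, for 15 pairs, 1 point per library with fibrosis above control in each row. The lowest 4 rows, Il2ra to Il2rb and Il1r1, Il1rl2 and Il1rl1 to Il1rap, have all fibrosis points left of the controls, and Il9r to Il2rg has all of them to the right.

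Other genes of these pathways were counted by the same test, by which 18.3% of all tested genes were higher and 17.0% lower. Of 8 tested receptor chains outside the symbol rule, 3 were higher and 1 lower. They included Crlf2, the receptor chain for TSLP (0.62 ± 0.08; adjusted p = 0.000120 by edgeR), Sigirr, an inhibitor of IL-1 family receptors (0.58 ± 0.09; adjusted p = 0.0002495 by edgeR), Csf2rb2, the mouse IL-3 receptor beta chain (0.45 ± 0.13; adjusted p = 0.0179 by edgeR), whose reads can be confused with those of its near copy Csf2rb, and the lower Csf2ra for GM-CSF (-0.36 ± 0.13; adjusted p = 0.0426 by edgeR). Csf2ra lost its call without any 1 of fibrosis 1 to 4 or control 1, 2, 4 or 5 (-0.39 to -0.31), and with protein-coding genes alone (-0.34; adjusted p of 0.0506 to 0.104 where lost and 0.00173 at its lowest). Csf2rb2 lost it without control 5 (0.40; adjusted p = 0.0517) and without fibrosis 4 and 5 (0.30; adjusted p = 0.0821; range 0.00244 to 0.0821 over its alternatives).

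Of 35 ligand and antagonist genes, 12 were tested and 1 was higher, Il12b, the p40 subunit of IL-12 and IL-23, at 3.65 CPM in fibrosis and 1.16 CPM in control (1.64 ± 0.36; adjusted p = 0.00342 by edgeR), and highest in fibrosis 4 and 5. Of the ligands of the genes that fell, Il33 had 11 counts over all libraries and Il2 had 11, too few to test. Il1a was at 0.60 ± 0.54 (adjusted p = 0.415 by edgeR) and Il1b at 1.01 ± 0.40 (adjusted p = 0.0722 by edgeR), or at -0.65 and 0.15 without fibrosis 4 and 5. Il1b passed without fibrosis 2 (1.18; adjusted p = 0.0495) and without fibrosis 3 (1.17; adjusted p = 0.0422; range over its alternatives 0.0422 to 0.657). Of the ligands of the genes that rose, Il4 had 54 counts, Il10 had 34 and Il13 had 6, too few to test. Il15 stood at 0.13 ± 0.29 (adjusted p = 0.767), and the IL-27 subunits Il27 and Ebi3 at 0.08 ± 0.24 and -0.25 ± 0.16 (adjusted p = 0.835 and 0.222, by edgeR).

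Of the 11 JAK and STAT genes, 5 were higher and 1 lower. Stat4, which serves IL-12 signalling, had the largest fold (1.43 ± 0.13; adjusted p = 1.31e-05 by edgeR), with Jak2 at 0.63 ± 0.10 (adjusted p = 0.000378), Jak3, the kinase bound to the common gamma chain, at 0.55 ± 0.12 (adjusted p = 0.00266) and Stat3 at 0.42 ± 0.09 (adjusted p = 0.00292, all by edgeR). Jak1 stood at 0.38 ± 0.11 (adjusted p = 0.0160 by edgeR), or at 0.32 without fibrosis 3 (adjusted p = 0.0518; range 0.000936 to 0.089 over its alternatives). Stat5a was the lower gene (-0.38 ± 0.10; adjusted p = 0.0114 by edgeR). Among 8 MyD88 and IL-17 adaptor genes, Irak3, an inhibitor of this pathway, was the higher one (0.72 ± 0.09; adjusted p = 0.000101 by edgeR) and Tollip the lower (-0.22 ± 0.08; adjusted p = 0.0434), a call kept in 12 of 23 alternatives (adjusted p of 0.00615 to 0.112). Of 12 tested feedback and response genes, 4 were higher, among them Socs2 (1.38 ± 0.25) and Socs3 (0.91 ± 0.13), and 2 were lower, Cish (-0.92 ± 0.21) and Socs1 (-0.52 ± 0.16), with adjusted p values of 0.00101, 0.0002025, 0.00368 and 0.0209 by edgeR. Socs1 lost its call without control 3 (-0.47; adjusted p = 0.0509; range 0.002 to 0.0509 over its alternatives). The SOCS family and Cish restrain cytokine receptors and are themselves induced by STAT proteins, and here its members moved in both directions. Dendritic cell markers were higher in 4 of 7. Their sum was 270.2 to 327 CPM in fibrosis and 160.5 to 176 CPM in control, above all controls in each fibrosis library. Zbtb46, Cd209a and Siglech did not pass and their groups overlapped (log2 fold changes of -0.19, 0.47 and 0.51). The part of dendritic cell markers in these lists was not tested.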

How the data were processed

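The deposited table holds raw counts per gene and library, and beside them FPKM that the authors computed. The genome build was GRCm38 (mm10), per the submitters' processing notes; the sources used here give no aligner, counter, strand setting or library kit. From the deposited counts, each FPKM came back as the count divided by gene length and library total, times a factor of 0.935 to 1.07 that was the same for all genes of a library. Because the strand setting is not known, reads of genes that overlap on opposite strands may not be separated.

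Counts were tested with edgeR 4.0.16 in R 4.3.3 (TMM scaling, robust quasi-likelihood fit, no covariate) over all 14599 genes that averaged 0.5 CPM or more in the 10 libraries, with Benjamini-Hochberg adjustment over all of them and a threshold of 0.05. CPM values are TMM-scaled, and the standard error is the absolute log2 fold change over the square root of F. The fit was checked on simulated counts with 200 changed genes. It recovered 66% of changes of 1 on the log2 scale and 97% of changes of 2, and 7.39% of its calls were false. In the data 35.2% of all tested genes passed, a far larger share than was changed in the simulation. These rates therefore need not hold for the data. The biological coefficient of variation was 0.184, and log2 CPM correlated at 0.973 to 0.991 within fibrosis and 0.991 to 0.995 within control. Ratios of FPKM were compared with exact permutation tests (scipy 1.17.1). Limits from counts cover counting error only. Every receptor gene was named, tested or not, and of other pathway genes those with a call or a direct tie to a receptor described. Promoter sequences are from RefSeq (GRCm38.p6): 33 receptor symbols matched, and Il10ra, Il10rb, Il12rb1, Il17ra, Il22ra2, Il27ra and Il2rb did not. The receptor genes, lists and chain pairs were chosen with earlier results of these data known. The 23 alternatives cover scaling, filters, DESeq2 1.42.0, limma 3.58.1 on counts and on log2(FPKM + 1) and log2(FPKM + 0.1), protein-coding genes alone, a replicate block and each library left out. Some marker genes are not reported here and were left out of their lists. The fit without fibrosis 4 and 5 was added after the data were seen, because those libraries stood apart.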

Additional observations from a re-analysis of the deposited data

Results flagged for a closer look

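In 5 groups of 5 libraries, 1 library stood apart from the other 4 by more than Dixon's 95% limit. Among 114 groups examined, 60 of them of receptor genes, chance alone flags about 1 in 20. Il15ra reached 11.3 CPM in fibrosis 5, with the next library at 7.98 CPM. Il1r1 was at 4.47 CPM in control 4, with the next control at 3.51 CPM, so the highest control lay farther from the fibrosis libraries and not nearer. Il31ra was at 1.98 CPM in control 2 and at most 1.15 CPM in the other controls. Of the other pathway genes, Il12a, the p35 subunit of IL-12, reached 23.8 CPM in fibrosis 3 against 12.1 CPM in the next fibrosis library. Bcl2, a survival gene, was at 49.4 CPM in control 3 and 36.9 CPM in the next control.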

How the results depend on the processing

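Of the 14 receptor calls, those of Il4ra, Il10ra, Il2rg, Il9r, Il1rl1, Il1rl2, Il1r1 and Il2ra held in all 23 alternatives; Il10rb and Il1rap lost theirs with no filter, and Il2rb, Il27ra, Il13ra1 and Il12rb1 lost theirs in 9 to 13. The count of higher receptor genes was 10. It was 6 with library size scaling and in both FPKM fits, and 6 to 12 with 1 library left out, while 4 were lower throughout (4 to 4). Of the pathway genes 14 were higher (13 to 18 with 1 library left out) and 5 lower (3 with protein-coding genes alone, and 3 to 5 with 1 library left out). The cause was not tested. Without fibrosis 4 and 5, 10 receptor genes were higher and 4 lower, with 13 of the 14 calls shared. Over all genes 2049 to 2908 were higher and 2082 to 2580 lower with 1 library left out.

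The replicate numbers did not pair the libraries: deviations of same-numbered libraries correlated at -0.308 to 0.502, and 2 of 5 fibrosis libraries correlated best with their own number. With the replicate block 11 receptor genes were higher and 4 lower; Il12rb1 lost its call (0.64; adjusted p = 0.0567), and Il18rap (0.69; adjusted p = 0.0486) and Il18r1 (0.65; adjusted p = 0.0367) gained one. Over all genes the block gave 2680 higher and 2558 lower.

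No gene or ratio with a call changed direction. Of the changes with no call, these did. Il17ra was at -0.0889 with library size scaling, -0.0314 with no filter, -0.0161 and -0.0172 in the FPKM fits (pseudocount 1 and 0.1) and -0.073 to 0.077 with 1 library left out. Il3ra was at -0.0554 with library size scaling, -0.0407 with voom, -0.0619 without fibrosis 4 and 5 and -0.0087 to 0.13 with 1 library left out, and Il12rb2 at -0.0733 with library size scaling, -0.0242 with no filter and -0.10 to 0.19. Il20rb was at -0.26 with voom and -0.17 to 0.29 with 1 left out, Il17rb at -0.20 to 0.11, Il6st at -0.0801 to 0.0114 and Il12a at -0.11 to 0.25. With voom Il15 was at -0.18 and Il1a at -0.27, and Il27 at -0.0314 with library size scaling. Without fibrosis 4 and 5, Il15 was at -0.37, Il1a at -0.65, Il1rn at -0.15 and Il27 at -0.0847, and the log2 ratio of Il13ra1 to Il4ra differed by -0.24 and of Il18r1 to Il18rap by 0.0743. With 1 library left out, Il15 was at -0.069 to 0.28, Il27 at -0.0038 to 0.15, Il4ra to Il2rg at -0.014 to 0.042, Il15ra to Il2rb at -0.27 to 0.084 and Il18r1 to Il18rap at -0.13 to 0.11. The 5 called ratios kept their call with each library left out. As their groups did not overlap, neither this nor their direction could come out otherwise, and it adds no support. Without fibrosis 4 and 5 their p by the exact permutation test was 0.0357, the smallest possible there (adjusted p = 0.0893). Receptor genes under 2 CPM rest on few reads.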
